A study of Mus musculus with 24 samples.

Results

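The gene module described here holds enzymes, carrier proteins, membrane proteins and transcription factors of the lysosome, the compartment in which cells break down sugars, lipids and proteins. Its members came from a written list of 32 genes, and a gene entered when the array table held a probe set annotated to that gene alone. That was so for 31 of the 32, of 18193 genes in all, and Cd63 had none. The measured members were grouped by role as 12 hydrolases of sugar chains, 6 of lipids and 2 of proteins, 3 lipid carriers and activator proteins, 6 membrane proteins and 2 transcription factors. The array data came from 12 primary lymphomas of Eμ-Myc mice, in which Myc is expressed throughout the B-cell lineage. Each lymphoma gave 1 untreated array and 1 array after 5 days of culture with 0.05 µg/ml Adriamycin (ADR), a DNA-damaging drug also called doxorubicin. Cells of both groups had been transduced with a retrovirus carrying Bcl2 (MSCVpuro), selected with puromycin and grown on NIH 3T3 feeder fibroblasts that had received 20 Gy of gamma radiation. Per the design text of the series, such Myc;Bcl2 cells enter senescence upon DNA damage. The comparison sets each lymphoma after 5 days of the drug beside the same lymphoma untreated. The untreated arrays are listed at the start of those days, and no untreated culture is listed at their end. Drug and time in culture therefore cannot be told apart. The arrays measured RNA of the whole culture, and feeder cells alone or lymphoma cells without Bcl2 were not analysed here.

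Lysosomal enzymes are made as precursors, sorted through the Golgi to an acidic compartment and activated there, and many need activator proteins that lift lipids out of membranes. The lysosomal membrane is lined by heavily glycosylated proteins and carries channels and transporters, and the transcription factors TFEB and TFE3 bind a short DNA element found near many lysosomal genes, known as the CLEAR element. The product of Glb1, lysosomal β-galactosidase, is the enzyme behind the β-galactosidase stain widely used as a marker of senescent cells.

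The promoters of the members are shown first, since TFEB and TFE3 are themselves members and the letters TCACGTG form the core of the CLEAR element. RefSeq promoter windows (GRCm38.p6) of 300 bases, from 250 bases before to 50 bases after a gene start, covered 30 of the 32 listed genes; Galns and Asah1 had no entry. TCACGTG was searched on both strands, so that TCACGTGA matches on each strand at once. It was present in 7 of 30 members (23.3%), against 1160 of 27025 genes with a window (4.29%) and 19 of 77 other lysosomal genes (24.7%). The shorter CACGTG, which is contained in it, was in 23.3% of members and 8.09% of genes. The matching stretches are printed 5′ to 3′ on the strand of the gene, with the matches in capitals. They lie at chr9:114401007-114401057 (Glb1, + strand), chrX:134601171-134601255 (Gla, − strand), chr11:119267800-119267850 (Gaa, + strand), chr15:89477425-89477463 (Arsa, − strand), chr12:102439125-102439153 (Lgmn, − strand, the second of its annotated starts), chr8:13159077-13159160 (Lamp1, + strand) and chr8:3500425-3500502 (Mcoln1, + strand).
Glb1: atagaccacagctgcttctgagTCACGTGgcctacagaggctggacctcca
Gla: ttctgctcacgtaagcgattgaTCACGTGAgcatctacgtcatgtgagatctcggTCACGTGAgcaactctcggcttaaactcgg
Gaa: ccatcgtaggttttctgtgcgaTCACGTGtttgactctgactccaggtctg
Arsa: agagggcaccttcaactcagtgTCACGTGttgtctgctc
Lgmn: tggaatgtctgTCACGTGgtccattttat
Lamp1: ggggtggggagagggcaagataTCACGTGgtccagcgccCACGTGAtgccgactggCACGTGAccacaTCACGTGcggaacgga
Mcoln1: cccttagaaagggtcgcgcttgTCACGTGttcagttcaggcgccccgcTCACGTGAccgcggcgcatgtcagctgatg
Lamp1 held the most sites, 4 between 62 and 10 bases before its start, and Gla and Mcoln1 held 2 each. A match of letters is a description of the window and not evidence of binding.

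Most lysosomal genes of the module were higher after ADR. Of the 31 measured members 25 rose, none fell and 6 did not pass the test (limma with the lymphoma as a block, adjusted p under 0.05 over all genes). Among all 18193 genes 13.7% were called higher and 12.8% lower, and among the 11358 genes whose mean lay above the highest array median 19.3% were called higher. The median change of the members was 0.61 on the log2 scale, against -0.01 over all genes. The 6 without a call were Neu1, Arsb, Galns, Galc, Gm2a and Tfeb. The count of 0 members lower was also 0 at an unadjusted p under 0.05, where 3208 of the 18193 genes were lower. Because the RNA was taken from whole cultures, more cells of a type and more RNA per cell cannot be told apart in any of these values.

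**Figure D1:**
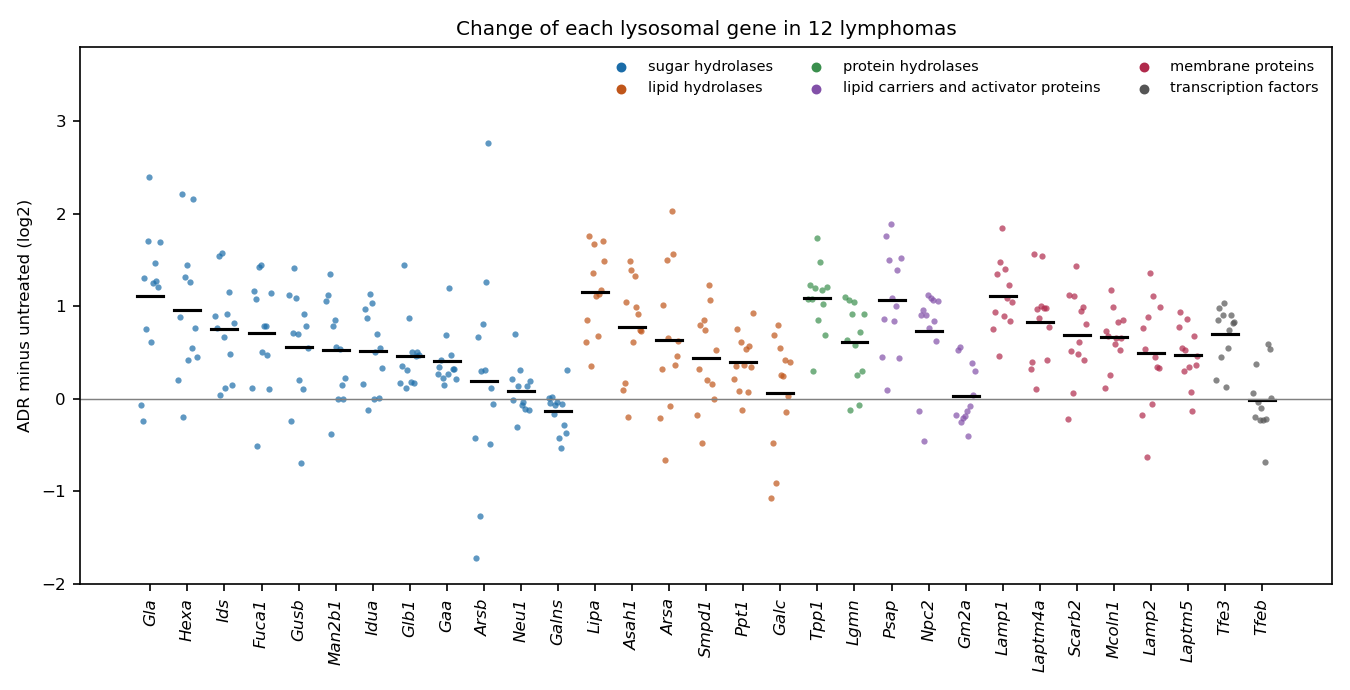
Log2 change (ADR minus untreated, y axis) of each of the 31 measured lysosomal genes (x axis, grouped and coloured by role), with 1 point for each of 12 lymphomas and a bar at the mean. Mean changes run from -0.14 (Galns) to 1.16 (Lipa), and the points of Arsb spread from -1.72 to 2.76.

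At least a doubling with a call was seen for Lipa, Gla, Lamp1, Tpp1 and Psap, which is 5 of 31 members, against 3.61% of all genes. Higher levels in all 12 lymphomas were seen for 10 members (Glb1, Gaa, Ids, Lipa, Tpp1, Psap, Lamp1, Mcoln1, Laptm4a and Tfe3), against 3.02% of all genes. No member had all ADR arrays above all untreated arrays, a separation reached by 0.033% of all genes. No member lay near the floor of the array values, with untreated means from 5.44 (Galc) to 11.79 (Laptm5).

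Several other measures of these cultures moved with ADR and stand beside every result on the members. All 14 measured B-cell markers had a mean above the highest array median (4.47) in both groups; 6 of 14 fell and none rose, with a mean change of -0.61 that ran from -2.09 in lymphoma 5560 to 0.67 in lymphoma 1570. Of 31 fibroblast markers 26 rose, and the mean level of the list lay between 4.21 and 4.93 on the untreated arrays and between 4.55 and 8.75 on the ADR arrays. Of 26 macrophage markers 18 rose, with a mean level between 4.78 and 7.67 on the untreated arrays and between 5.86 and 8.68 on the ADR arrays. Of the fibroblast markers 18 had an untreated mean at or below that array median, near the floor where changes are compressed, and Pdgfrb, Lum, Twist1 and Fap had such means in both groups. The macrophage genes Mrc1, C1qa, Mertk, Cd163 and Vsig4 had means no higher than that array median in either group. Of 12 neutrophil markers 4 rose, and 7 had a mean at or below that array median in each group. The mean of the neutrophil list was higher in 12 of 12 lymphomas, by 0.76 on average. Fibroblasts and macrophages also express lysosomal genes, and their part in the changes of the members was not tested beyond the correlations and covariate fits given further down.

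Among the hydrolases of sugar chains 9 of 12 rose, with a median change of 0.52. Glb1, lysosomal β-galactosidase, ranged over the untreated arrays from 7.27 through a median of 8.35 to 8.87, and over the ADR arrays from 7.38 through 8.71 to 9.67. The groups overlapped, with 4 ADR arrays above the highest untreated array, and lymphoma 2949 was lowest in change (0.11) while lymphoma 2581 was far above the others (1.45). The rise was 0.46 (SE 0.10, 1.38-fold, limma adjusted p = 0.00474, higher in 12 of 12).

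Gla, α-galactosidase A, the enzyme deficient in Fabry disease, gave the largest rise of this class. It ranged from 7.10 through 8.03 to 8.81 untreated and from 7.74 through 9.19 to 10.45 with ADR. Of its ADR arrays 8 lay above every untreated array, but 2 lymphomas went down, lymphoma 1570 most (-0.24), and lymphoma 3769 was higher by 2.40. The change was 1.11 (SE 0.20, 2.16-fold, adjusted p = 0.00101, higher in 10 of 12).

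Hexa, the α subunit of β-hexosaminidase, varied most between lymphomas before treatment, from 5.58 through 8.74 to 10.89, and ran from 5.38 through 9.95 to 11.67 with ADR. The groups overlapped over nearly their whole range, yet within pairs 11 of 12 lymphomas were higher, by 0.96 on average (SE 0.20, 1.94-fold, adjusted p = 0.00275). Ids, iduronate-2-sulfatase of heparan and dermatan sulfate breakdown, rose by 0.76 in 12 of 12 lymphomas, and Fuca1, α-L-fucosidase, by 0.71 in 11 of 12. With the probe set of largest variance Fuca1 was at 0.29 without a call (adjusted p = 0.264), and with the mean of its probe sets at 0.38 with one (adjusted p = 0.0221).

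Smaller rises were measured for Gusb (β-glucuronidase, 0.55), Man2b1 (lysosomal α-mannosidase, 0.52), Idua (α-L-iduronidase, 0.51) and Gaa (acid α-glucosidase, which breaks down glycogen, 0.41). The calls of 3 of these 4 depended on the probe set: with that of largest variance Gusb was at 0.28 (adjusted p = 0.456), Man2b1 at 0.28 (adjusted p = 0.330) and Idua at 0.32 (adjusted p = 0.147). With the mean of the probe sets Gusb (0.42, adjusted p = 0.137) and Man2b1 (0.40, adjusted p = 0.0746) also had no call. Gusb differed from the rest in its pattern over lymphomas. Its largest rise was in lymphoma 2949 (1.41), where 18 of the 31 members had their lowest change, and its lowest value was in lymphoma 403 (-0.70).

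The sugar hydrolases without a call were Galns, Neu1 and Arsb. Galns, a sulfatase of keratan sulfate breakdown, had the lowest change of all members. It ranged from 8.10 through 8.50 to 8.78 untreated and from 7.99 through 8.38 to 8.72 with ADR. The groups overlapped almost fully, 9 of 12 lymphomas were lower, and the change was -0.14 (95% interval -0.29 to 0.01, adjusted p = 0.175). Neu1, the lysosomal sialidase, was at 8.37 ± 0.25 and 8.46 ± 0.38 (SD, n = 12), with 6 lymphomas higher and 6 lower and an interval of the change from -0.08 to 0.25. Arsb, a sulfatase of dermatan sulfate breakdown, had the widest spread of any member. Its changes ran from -1.72 in lymphoma 1570 to 2.76 in lymphoma 5560 (SD 1.17), so that its mean change of 0.19 had an interval from -0.47 to 0.85.

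Among the hydrolases of lipids 5 of 6 rose, with a median change of 0.53. Lipa, lysosomal acid lipase, which releases cholesterol and fatty acids from lipoprotein lipids, had the largest mean change of the module. It ranged from 7.69 through 8.37 to 8.85 untreated and from 8.36 through 9.53 to 10.16 with ADR. Of the ADR arrays 10 lay above the highest untreated array, and the paired changes ran from 0.35 (lymphoma 2949) to 1.76 (lymphoma 2581). The change was 1.16 (SE 0.12, 2.23-fold, adjusted p = 3.3e-05, higher in 12 of 12). All 3 of its probe sets were called higher.

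Asah1, acid ceramidase, rose by 0.77 (adjusted p = 0.0013, higher in 11 of 12). Arsa, arylsulfatase A, which acts on sulfatides, rose by 0.63 with a wide spread, from -0.66 in lymphoma 2949 to 2.03 in lymphoma 403 (adjusted p = 0.0367). Smpd1, acid sphingomyelinase, rose by 0.44 (adjusted p = 0.0326), also with its lowest value in lymphoma 2949 (-0.48) and its highest in lymphoma 403 (1.22). Ppt1, a thioesterase that removes fatty acids from proteins, rose by 0.39 in 11 of 12 lymphomas (adjusted p = 0.00436). The calls of Arsa and Smpd1 were lost when any of several single lymphomas was left out.

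Galc, galactosylceramidase, was the lipid hydrolase without a call. It ranged narrowly before treatment, from 5.08 through 5.43 to 5.66, and widely with ADR, from 4.46 through 5.73 to 6.24. The ADR values surrounded the untreated ones on both sides, with 8 lymphomas higher and 4 lower. The change ran from -1.08 in lymphoma 1467 to 0.80 in lymphoma 3594, and its mean of 0.06 had an interval from -0.28 to 0.41.

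Both protein hydrolases rose. Tpp1, tripeptidyl peptidase 1, ranged from 9.38 through 9.79 to 10.38 untreated and from 9.74 through 10.83 to 11.75 with ADR. All ADR arrays except that of lymphoma 2949 lay above the highest untreated array. The change was 1.08 (SE 0.10, 2.12-fold, adjusted p = 1.65e-05, higher in 12 of 12). Lgmn, legumain, an asparaginyl endopeptidase, ranged from 9.24 through 10.05 to 11.37 and from 9.16 through 10.76 to 12.44. Its groups overlapped over most of their range, with 2 ADR arrays above the highest untreated array, and the paired change was 0.61 (SE 0.12, 1.53-fold, adjusted p = 0.00172, higher in 10 of 12).

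Of the lipid carriers and activator proteins 2 of 3 rose. Psap, the precursor of the saposins, which present sphingolipids to their hydrolases, ranged from 10.08 through 11.33 to 12.55 untreated and from 10.71 through 12.47 to 13.66 with ADR. With ADR 6 arrays lay above the highest untreated array, and every lymphoma was higher, by 0.09 in lymphoma 2949 and by 1.89 in lymphoma 3769. The change was 1.07 (SE 0.15, 2.10-fold, adjusted p = 0.000183). Npc2, which hands cholesterol to the membrane protein NPC1, rose by 0.73 in 10 of 12 lymphomas (adjusted p = 0.00136).

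Gm2a, the GM2 activator, which serves β-hexosaminidase, ranged from 9.18 through 9.73 to 10.73 untreated and from 8.85 through 9.88 to 10.51 with ADR. The groups covered nearly the same span, with 5 lymphomas higher and 7 lower. Its change was 0.03 (interval -0.17 to 0.23, adjusted p = 0.862).

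All 6 measured membrane proteins rose, with a median change of 0.68, although the call of Lamp2 was lost in 6 of the 12 fits that left out a lymphoma. Lamp1, an abundant glycoprotein of the lysosomal membrane, ranged from 9.56 through 10.18 to 10.81 untreated and from 10.31 through 11.20 to 11.90 with ADR. Only 2 untreated arrays reached above the lowest ADR array, and 9 ADR arrays lay above every untreated one. The change was 1.11 (SE 0.10, 2.16-fold, adjusted p = 1.65e-05, higher in 12 of 12), lowest in lymphoma 2949 (0.46) and highest in lymphoma 3769 (1.85).

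Laptm4a, a membrane protein of late endosomes and lysosomes, rose by 0.83 in 12 of 12 lymphomas (adjusted p = 0.000297). Scarb2, the receptor that carries β-glucocerebrosidase to the lysosome, rose by 0.69 in 11 of 12 (adjusted p = 0.00134). Mcoln1, a calcium-releasing channel of the lysosomal membrane, rose by 0.67 in 12 of 12 (SE 0.08, adjusted p = 7.67e-05). Lamp2, the partner of Lamp1 that also serves in autophagy, rose by 0.49 with more spread, from -0.63 in lymphoma 2949 to 1.36 in lymphoma 3769 (adjusted p = 0.0298).

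Laptm5, a lysosomal membrane protein of blood cells, had the smallest rise of the class. It ranged from 11.10 through 11.90 to 12.34 untreated and from 11.64 through 12.30 to 12.96 with ADR. The groups overlapped, with 6 ADR arrays above the highest untreated array. The change was 0.48 (SE 0.09, 1.39-fold, adjusted p = 0.00143, higher in 11 of 12). Its lowest change was in lymphoma 5560 (-0.13), the lymphoma with the largest fall of the B-cell markers (-2.09), and its highest in lymphoma 1570 (0.93), where those markers were highest in change (0.67). Arsb went the other way, highest in lymphoma 5560 (2.76) and lowest in lymphoma 1570 (-1.72). A relation of any member to the B-cell markers was not tested.

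Of the transcription factors, Tfe3 rose and Tfeb had no call. Tfe3 ranged from 6.82 through 7.04 to 7.83 untreated and from 7.33 through 7.86 to 8.57 with ADR. A single untreated array stood high, and 7 ADR arrays lay above it. The change was 0.70 (SE 0.09, 1.62-fold, adjusted p = 7.23e-05, higher in 12 of 12), lowest in lymphoma 3802 (0.13) and highest in lymphoma 3769 (1.04).

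Tfeb ranged from 6.35 through 6.98 to 7.36 untreated and from 6.35 through 6.89 to 7.40 with ADR. The groups covered the same span, with 5 lymphomas higher and 7 lower. The change was -0.01 (interval -0.23 to 0.21, adjusted p = 0.957). Each of these genes had 1 probe set, and transcript levels say nothing of where in the cell the proteins were.

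**Figure D2:**
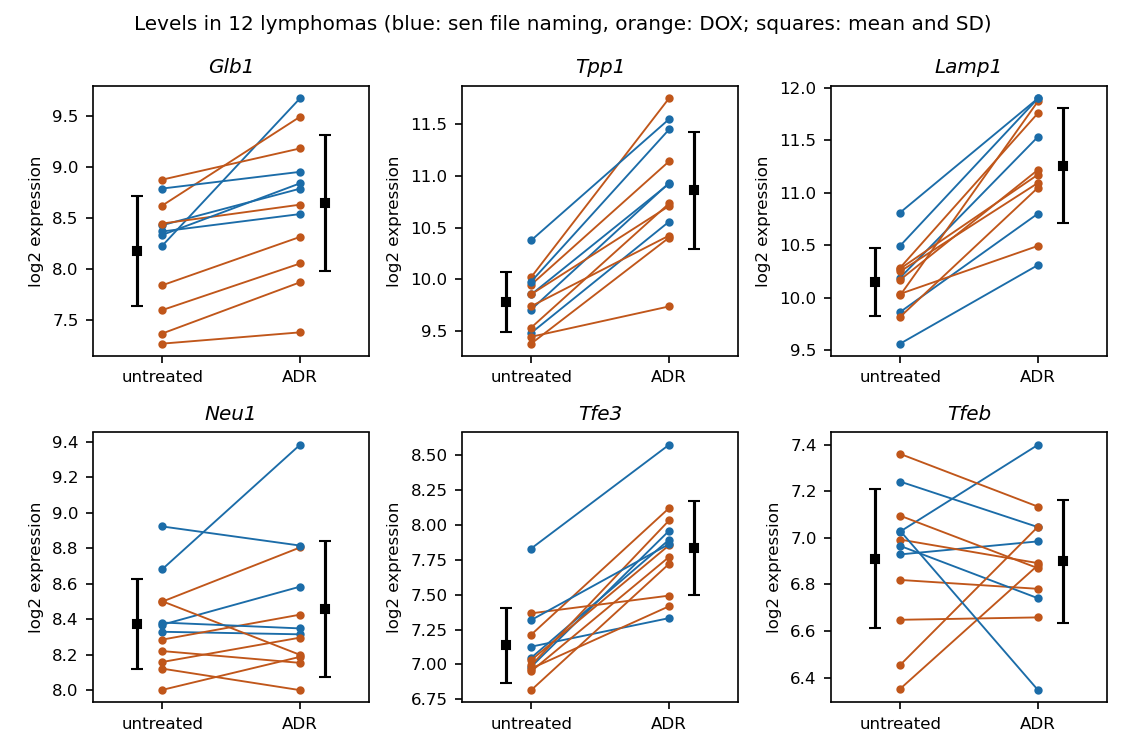
Log2 expression (y axis, scaled per gene) of Glb1, Tpp1, Lamp1, Neu1, Tfe3 and Tfeb in 12 lymphomas; each line joins the untreated and the ADR array of a lymphoma, coloured by the naming of the treated array file, and black squares with bars give the mean and SD of each group. All lines rise for Glb1, Tpp1, Lamp1 and Tfe3, while 6 of 12 rise for Neu1 and 5 of 12 for Tfeb.

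Different probe sets of a gene did not always give the same call. The members had 76 single-gene probe sets, of which 44 were called higher and 1 lower in a fit over 34945 probe sets. The share of all probe sets called in that fit is not given here. The counts therefore describe only how far the probe sets of a member went together. All probe sets were called higher for 14 members, 6 of which had more than 1. The probe set called lower belonged to Arsb. Of the 6 Ids probe sets 2 were called higher, and of the 4 Lamp2 probe sets all were.

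The 7 members with TCACGTG in their promoter window all rose, with a median change of 0.63. Of the 22 measured members with a window but without these letters 17 rose, with a median of 0.54. Among all genes 13.7% were called higher, and the share among all genes with these letters is not given here. The difference between members with and without the letters was not tested, and most members rose in either set. Lipa, Tpp1 and Psap, with at least a doubling, had no match, and neither had Tfe3 or Tfeb.

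Membrane proteins stood slightly above the hydrolases within most lymphomas. The median change of the 20 hydrolases was 0.54, with 16 called higher, against 0.68 for the 6 membrane proteins. Per lymphoma, the hydrolase median ran from -0.15 to 1.03 and the membrane protein median from 0.18 to 1.17. The membrane protein median was the higher in 11 of 12 lymphomas, by a median of 0.26 (range -0.41 to 0.50). The exception was lymphoma 2581, where the hydrolases were at 1.03 and the membrane proteins at 0.61. These medians summarise few genes and were given no test. In the further lists described below the order was the other way. The list made up mostly of other hydrolases had a median change of 0.49, that of other membrane proteins and transporters 0.38.

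The lymphomas differed more from each other than the classes did. The median change over the 31 members ran from -0.04 in lymphoma 2949, where 15 of 31 were higher, to 0.96 in lymphoma 2581, where all 31 were higher. It was above 0 in 11 of 12 lymphomas (SD 0.31). Lymphoma 3769 gave the highest change for 9 members and lymphoma 2581 for 7. Lymphoma 2949 also had the lowest change of the macrophage markers (0.41), and lymphoma 2581 the highest (2.46). For the fibroblast markers the lowest change was in lymphoma 1467 (-0.06) and the highest in lymphoma 403 (4.14).

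**Figure D3:**
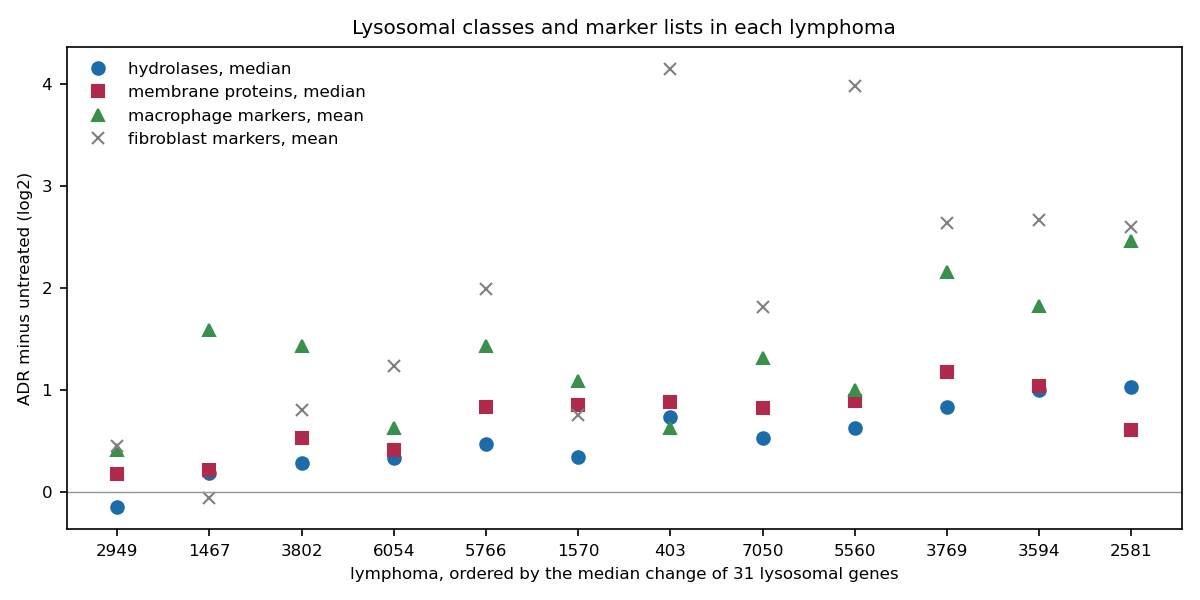
Change (ADR minus untreated, log2, y axis) in each lymphoma (x axis, ordered by the median change of the 31 members) of the hydrolase median, the membrane protein median and the means of the macrophage and fibroblast markers. Squares lie above circles in every lymphoma but 2581, and lymphoma 2949 is lowest for both classes.

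The change of each member was compared over the 12 lymphomas with the mean change of the fibroblast and of the macrophage markers, which is 62 relations tested by permutation (100000 resamples, two-sided, Benjamini-Hochberg over the 62). The member change and the marker change of a lymphoma come from the same pair of arrays. With the fibroblast markers r was above 0 for 24 of 31 members (median 0.53), and 7 passed the adjusted test, all with r of 0.710 or more. Over all genes tested r was above 0 for 43.2% and at least that high for 7.47%, and over the 2500 genes called higher for 79.3% and 29.2%, which is no less than among the members. With the macrophage markers r was above 0 for 30 of 31 members (median 0.43), and 4 passed, with r of 0.786 or more. Over all genes tested r was above 0 for 48.6% and at least that high for 0.423%, and over the genes called higher for 67.4% and 1.96%. These shares are descriptions without a test. Those that passed were Arsa, Smpd1, Asah1, Arsb, Laptm4a, Galc and Npc2 for the fibroblast markers. For the macrophage markers they were Neu1, Lgmn, Psap and Man2b1. By Spearman rho 8 members passed with the fibroblast markers, among them Gla (rho = 0.734, adjusted p = 0.0477) and Lamp1. Laptm4a did not pass by rho (rho = 0.692, adjusted p = 0.0716). No member passed with both lists, but a difference in r between the lists was not tested.

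Of the 7 members that passed with the fibroblast markers, 4 were lipid hydrolases. Arsa had r = 0.926 (adjusted p = 0.00062) and rho = 0.958 (adjusted p = 0.00062), where the unadjusted p of 1e-05 is the smallest these permutations can give. Without lymphomas 403 and 5560, the pair farthest from the median of the fibroblast change, r was 0.859, and within the 7 lymphomas with DOX in the treated file name it was 0.879. Smpd1 had r = 0.916 (adjusted p = 0.000827) and rho = 0.902 (adjusted p = 0.0031), with 0.858 without those lymphomas and 0.888 within the 7. Asah1 had r = 0.827 (adjusted p = 0.0119) and rho = 0.909 (adjusted p = 0.00207), with 0.923 and 0.930. Arsb and Galc, whose mean change did not pass the test, were also among the 7, with r = 0.809 (rho = 0.790) and r = 0.726 (rho = 0.734).

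On the macrophage side, Neu1 had r = 0.899 (adjusted p = 0.000827) and rho = 0.874 (adjusted p = 0.00546) although its mean change did not pass. Without lymphomas 2581 and 2949, the pair farthest from the median of the macrophage change, r was 0.818, and within the 7 DOX lymphomas it was 0.891. Lgmn had r = 0.847 (adjusted p = 0.00868) and rho = 0.902 (adjusted p = 0.00207), with 0.795 and 0.924. Psap had r = 0.807 (adjusted p = 0.0155) and rho = 0.776 (adjusted p = 0.0276), with 0.687 and 0.950. Man2b1 had r = 0.786 (adjusted p = 0.0205) and rho = 0.769 (adjusted p = 0.0319), with 0.593 and 0.938. With the fibroblast markers these members had r from -0.17 (Lgmn) to 0.48 (Psap) over all lymphomas. Within the 7 DOX lymphomas it ran from 0.73 (Man2b1) to 0.91 (Neu1). The members that passed with the fibroblast markers had r with the macrophage markers from 0.12 (Arsa) to 0.47 (Galc) over all lymphomas. Within the 7 it ran from 0.66 (Arsa) to 0.90 (Smpd1). No correlation was computed within the 5 lymphomas with sen in the file name.

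Neither Lamp1 nor Tfe3 passed the adjusted test of r with either list. Lamp1 had r = 0.701 (adjusted p = 0.0593) and rho = 0.853 (adjusted p = 0.00847) with the fibroblast markers and r = 0.614 (adjusted p = 0.112) and rho = 0.503 (adjusted p = 0.209) with the macrophage markers. Tfe3 had r = 0.467 (adjusted p = 0.225) and r = 0.357 (adjusted p = 0.393). Within the 7 DOX lymphomas the median r over the members was 0.83 with the fibroblast and 0.77 with the macrophage markers.

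**Figure D4:**
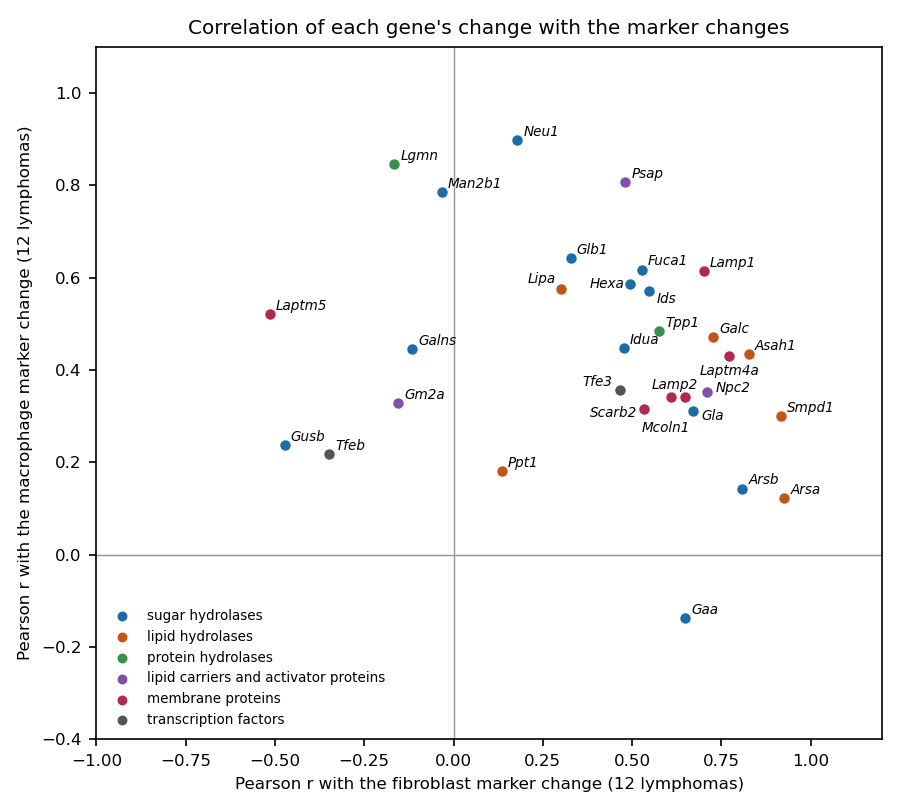
Pearson r over 12 lymphomas between the change of each lysosomal gene and the mean change of the fibroblast markers (x axis) and of the macrophage markers (y axis), coloured by role. Arsa and Smpd1 lie far right, Neu1, Lgmn, Psap and Man2b1 lie at the top, and Gaa is the point below 0 on the y axis.

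Fits with the marker levels as covariates gave smaller changes for most members. With the fibroblast mean of each array as a covariate, 5 members were called higher: Gusb (0.97, adjusted p = 0.0454), Lipa (0.96, adjusted p = 0.0213), Tpp1 (0.78, adjusted p = 0.0106), Lamp1 (0.74, adjusted p = 0.00938) and Laptm5 (0.71, adjusted p = 0.0122). Over all genes 2.59% were called higher in that fit, and the median change of the members was 0.32. Glb1 was at 0.29 (adjusted p = 0.425) and Tfe3 at 0.50 (adjusted p = 0.0564). Arsa (-0.41), Smpd1 (-0.24) and Lamp2 (-0.04), which rose without the covariate, had estimates below 0. The fibroblast mean rose in 11 of 12 lymphomas and so moves with the treatment, and the SE of Glb1 grew from 0.10 to 0.18.

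With the macrophage mean as the covariate no member and no other gene was called by limma (0.0% of genes higher). At an unadjusted p under 0.05, 6 members were higher and 2 lower, beside 836 genes higher and 1045 lower in all. The median change of the members was 0.13, with 21 estimates above 0 and 10 below. Tpp1 (0.71), Lamp1 (0.62), Lipa (0.59) and Tfe3 (0.47) had the same sign as without the covariate, while Glb1 (-0.05) and Lgmn (-0.17) changed sign. The macrophage mean rose in 12 of 12 lymphomas and so moves with the treatment, and the SE of Lamp1 grew from 0.10 to 0.21. With both lists in the fit no gene was called (0.0%), 0 members were higher and 4 lower at an unadjusted p under 0.05, beside 1184 genes higher and 1074 lower, and the median was -0.12.

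**Figure D5:**
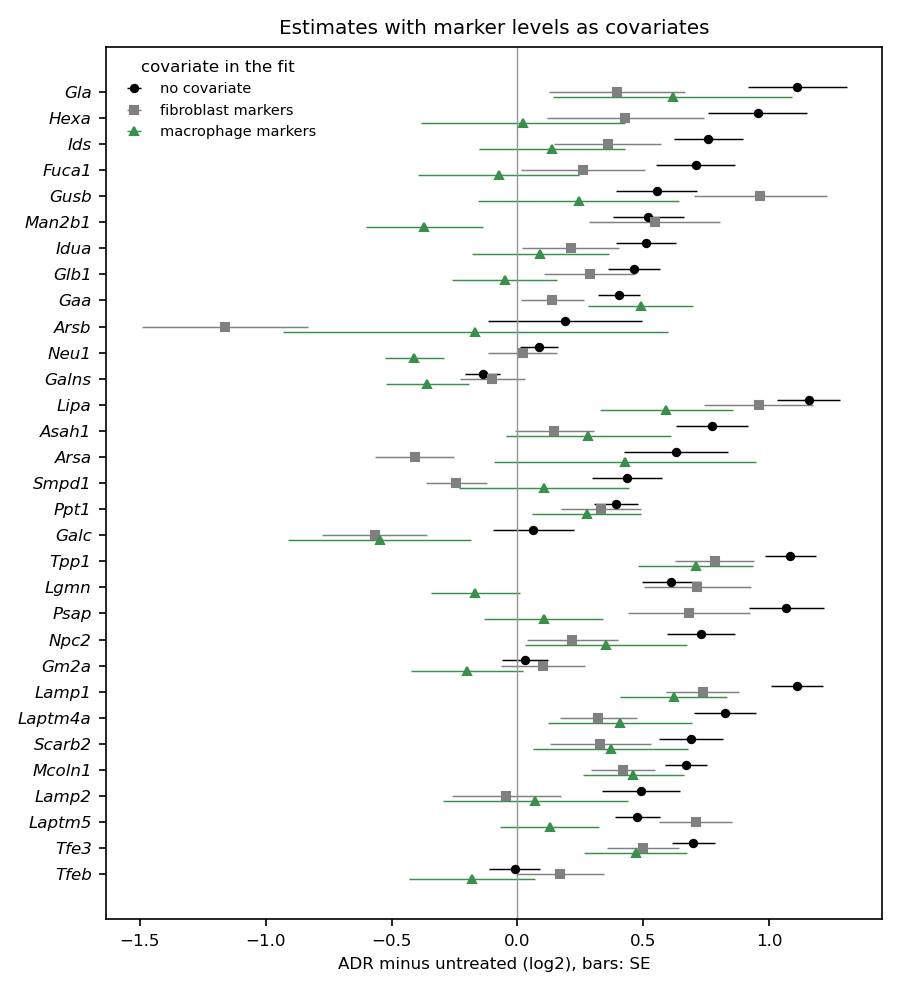
Estimated change (ADR minus untreated, log2, x axis, bars SE) of each lysosomal gene (y axis) with no covariate, with the fibroblast marker mean and with the macrophage marker mean of each array as a covariate. Estimates lie above 0 for 25 of 31 members with the fibroblast markers and for 21 of 31 with the macrophage markers. Tpp1, Lipa and Lamp1 are among the members above 0 in the 3 fits drawn. No gene is called with the macrophage markers, and the fit with both lists, also without calls, is not drawn. Arsa, Galc and Arsb are among the members below 0 with the fibroblast markers.

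The treated array files carry either sen (5 lymphomas) or DOX (7 lymphomas) in their names, a difference of unknown meaning. Within DOX 17 members were called higher (9.06% of genes), and within sen 5, namely Ids, Lipa, Tpp1, Psap and Lamp1 (1.86% of genes). At an unadjusted p under 0.05, 23 members were higher within sen, beside 2185 of 18193 genes. The difference in response between the sets was called for 0 of 18193 genes by limma, and 1237 had an unadjusted p under 0.05, none of them a member (lowest adjusted p of a member 0.733). Without the block for lymphomas 19 members were called higher (8.96% of genes). Without lymphomas 403 and 5560, where the change of the fibroblast markers was highest, 22 members were called higher (11.4% of genes) with a median change of 0.66. Leaving out each lymphoma in turn kept 22 of the 25 calls in every fit. The calls of Arsa, Smpd1 and Lamp2 were lost whenever lymphoma 2581, 3594, 3769, 7050 or 403 was left out. Arsa was also lost without 5560, 5766 or 6054, Smpd1 without 5560 and Lamp2 without 1570.

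Genes of the lysosome outside the module moved mostly the same way. Of 97 further lysosomal genes 88 were measured, 51 rose and 3 fell, with a median change of 0.36, beside 13.7% of all genes called higher and 12.8% lower. In a list made up mostly of other hydrolases and genes of their activation 16 of 23 rose and none fell; it also holds Tpcn1, an ion channel, without which 15 of 22 rose. The largest rises were those of Sumf1, the enzyme that activates all sulfatases (1.11, 2.15-fold), Acp2, lysosomal acid phosphatase (1.05), and Smpdl3a, a phosphodiesterase related to sphingomyelinase (1.04). Among other membrane proteins and transporters 15 of 25 rose and none fell, led by Gpnmb, a glycoprotein of macrophages and pigment cells (1.93, 3.81-fold), Slc11a1, a metal transporter of phagocytes (1.55), and Cd68, a lysosomal glycoprotein of macrophages (1.47). These last 3 are known from phagocytes, and the macrophage markers rose by 1.33 on average in the same arrays. A link between these rises was not tested beyond the covariate fits given further down.

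Of the 18 sorting genes 9 rose and 2 fell, the latter a share near the 12.8% of all genes called lower. Igf2r, the large mannose-6-phosphate receptor that brings hydrolases to the lysosome, rose by 0.80. Ap3d1, a subunit of the AP-3 adaptor, rose by 0.74, and its arrays ran from 7.58 to 8.64 untreated and from 8.69 to 9.32 with ADR, so that its groups did not overlap. Vps26a, a retromer subunit, rose by 0.61. Gnptab, a subunit of the enzyme that makes the mannose-6-phosphate tag, fell by 0.33 (adjusted p = 0.038), and the other call was that of Gga2, an adaptor of mannose-6-phosphate receptors, which fell by 0.32.

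Of the 22 measured genes of nutrient sensing upstream of TFEB and TFE3, 11 rose and 1 fell. Fnip2, a partner of folliculin, had the largest rise (2.28, 4.87-fold), from 4.05 through 5.93 to 9.01 untreated to 5.21 through 8.91 to 9.94 with ADR, with overlapping groups. Mitf, a relative of TFEB and TFE3, rose by 0.93, and Rragc, a Rag GTPase that recruits mTORC1 and TFE3 to the lysosome, by 0.90 (adjusted p = 2.5e-05). Ppp3cb, a catalytic subunit of calcineurin, the phosphatase that acts on TFEB, fell by 0.65 and was lower in 12 of 12 lymphomas (adjusted p = 5.75e-05). The other calcineurin subunits on the list rose, Ppp3ca, also catalytic, by 0.30 (adjusted p = 0.0298) and Ppp3r1, the regulatory subunit, by 0.46 (adjusted p = 0.000759).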

How the data were processed

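The authors deposited 1 log2 value per probe set and array from Affymetrix arrays. The submitters' processing notes name RMA and Partek, while versions and settings are not given in the sources used here. Such values are compressed near the floor, so changes of dim genes look smaller. The array medians lay between 4.38 and 4.47. Of 45101 probe sets 34945 had 1 gene symbol in the platform annotation, 932 several and 9160 none, and a further 64 were controls. Where a gene had several single-gene probe sets, that with the highest mean over the 24 arrays was used. The members, classes, other lists and named genes were chosen with earlier results of these data known. Fully described are Glb1, Tfeb, Tfe3, Lamp1 and, in each class, the member with the largest called rise and that with the largest fall or smallest change; Hexa, Neu1 and Arsb were chosen after their values were seen. In each further list the 3 largest changes in the main direction and the largest the other way are named, and Gga2, Tpcn1, Ppp3ca and Ppp3r1 were added after their values were seen.

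Groups and lymphoma numbers came from the sample titles, and matched pairs are stated in the design text. As a check, the untreated and ADR arrays of a lymphoma deviated together from their group means in 12 of 12 pairs (r from 0.257 to 0.589), best with their own partner in 10. The comparison used limma 3.58.1 in R 4.3.3 (lmFit, eBayes) with the lymphoma as a block and Benjamini-Hochberg adjustment over 18193 genes. The 95% intervals come from the same fit and are not adjusted. Correlations used Python 3.11.15 with scipy 1.17.1, numpy 2.4.6 and pandas 2.3.3, and figures matplotlib 3.10.9. The fit was tested on simulated data of ADR against untreated with 18193 genes, of which 67 were changed by 0.5, 67 by 1 and 66 by 2. It found 67.2% of the genes changed by 0.5 and 97% of those changed by 1, and 2.78% of its calls were wrong. The simulated noise was independent between genes, and far fewer genes changed than the 2500 called higher and 2329 called lower in the data. These shares therefore need not hold for the data. The number of lymphomas limits the precision, and each pair is a separate lymphoma. Alternatives covered the pairing, centring, quantile normalization, a filter on dim genes, the choice of probe set, array weights, robust variances, marker covariates, the file naming and each lymphoma left out; the fit without lymphomas 403 and 5560 was added after seeing the data.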

Additional observations from a re-analysis of the deposited data

How the results depend on the processing

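The count of 25 members higher and the median of 0.61 over the members kept their size with arrays centred or quantile normalized. The same held with array weights, robust variances and a filter on dim genes. With the mean of all probe sets 23 members were called and the median was lower, at 0.50. With the probe set of largest variance 21 were called and the median was 0.60. Without the block that pairs the lymphomas (no replicate block) 19 members were called; the other lysosomal genes called went from 51 higher and 3 lower to 36 and 1. With each lymphoma left out in turn the members called lay between 22 and 25 and the median between 0.55 and 0.68, with 45 to 54 other lysosomal genes higher and 2 to 3 lower. Members called higher were 5 within sen, 5 with the fibroblast, 0 with the macrophage and 0 with both covariates. Other lysosomal genes called higher were 11 within sen (1 lower), 7, 0 and 0 (0 lower in all 3). The median was 0.13 with the macrophage and -0.12 with both covariates.

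Single genes changed sign as follows, and the cause was not tested. With both covariates the estimates were Glb1 -0.17, Hexa -0.37, Man2b1 -0.29, Fuca1 -0.41, Neu1 -0.44, Ids -0.17, Idua -0.14, Arsb -1.30, Arsa -0.45, Galc -1.05, Asah1 -0.22, Smpd1 -0.45, Lgmn -0.033, Npc2 -0.060, Psap -0.17, Gm2a -0.12, Lamp2 -0.36, Acp2 -1.01, Smpdl3a -1.18, Gpnmb -0.37, Slc11a1 -0.072, Cd68 -0.86 and Mitf -0.20. With the macrophage covariate they were Glb1 -0.050, Man2b1 -0.37, Fuca1 -0.074, Neu1 -0.41, Arsb -0.17, Galc -0.55, Lgmn -0.17, Gm2a -0.20, Acp2 -0.29, Smpdl3a -0.71, Cd68 -0.74 and Mitf -0.22. With the fibroblast covariate they were Arsb -1.16, Arsa -0.41, Galc -0.57, Smpd1 -0.24, Lamp2 -0.043 and Tfeb 0.17. Members without a call also changed sign with the mean of probe sets (Arsb -0.12, Gm2a -0.080), the largest-variance probe set (Gm2a -0.17), within DOX (Arsb -0.040, Gm2a -0.0086, Tfeb 0.078), within sen (Galc -0.043), without lymphomas 403 and 5560 (Arsb -0.18, Tfeb 0.078) and with array weights (Tfeb 0.052). With each lymphoma left out they ranged from -0.045 to 0.36 (Arsb), -0.0038 to 0.17 (Galc), -0.018 to 0.070 (Gm2a) and -0.066 to 0.050 (Tfeb).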

Other observations

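In the untreated arrays alone, the levels of a few members moved with the macrophage markers over the 12 lymphomas. These 62 relations of levels were chosen after seeing the data and tested by permutation, with Benjamini-Hochberg adjustment over the 62. Lamp1 had r = 0.878 (adjusted p = 0.0118) and rho = 0.839 (adjusted p = 0.0812), and r was 0.844 without lymphomas 1570 and 1467 and 0.690 within the 7 DOX lymphomas. Psap had r = 0.856 (adjusted p = 0.0121) and rho = 0.734 (adjusted p = 0.176), with 0.774 and 0.675. Lipa had r = 0.790 (adjusted p = 0.0442) and rho = 0.790 (adjusted p = 0.0983), with 0.599 and 0.055, so that the relation did not hold within the DOX set. Glb1 had r = 0.133 (adjusted p = 0.892) and rho = 0.210 (adjusted p = 0.932). No member passed the adjusted test of rho with the macrophage markers, and none passed either test with the fibroblast markers. Over the 31 members the median r with the macrophage markers was 0.25, and within the 7 DOX lymphomas it was -0.09. The share of all genes with such r is not given here, so the 3 members that passed do not describe the lysosomal genes as a set.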
